A study of Mus musculus with 10 samples.

Results

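Potassium channel genes were read in RNA of GUCY2C High and GUCY2C Medium cells sorted from the small intestine. The members were the protein-coding genes whose symbol starts with Kcn, together with Abcc8 and Abcc9, which encode the sulfonylurea receptor subunits of ATP-sensitive potassium channels. This rule uses names and no measured value, and it found 96 of the 54532 genes in the table. Of these, 40 encode voltage-gated subunits, 15 inward rectifiers, 14 two-pore channels, 8 calcium- or sodium-activated channels and 19 auxiliary subunits, by symbol.

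Both groups came from the same 5 litter-matched Gucy2c-GFP reporter mice, 10 weeks old, of the outbred CD1/ICR stock, so every cell carried the reporter transgene, in which GFP is driven by the Gucy2c promoter of a bacterial artificial chromosome. Live single epithelial cells were sorted by GFP brightness into GUCY2C High and GUCY2C Medium (also named Lo in the labels), 20000 cells per library and 1 library per group and mouse. The gate therefore followed reporter fluorescence and no cell type marker. The sample titles bear the numbers 2, 7, 12, 14 and 15 in each group. These were taken as mouse numbers shared by both groups, which the labels do not state. Values are given below in that order.

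Potassium channels let potassium leave or enter a cell along its electrochemical gradient and so set the resting voltage, the shape of action potentials and the driving force for other ions. In endocrine cells of gut and pancreas, channels closed by ATP couple nutrient metabolism to depolarization and hormone release. In absorptive and secretory epithelium, basolateral potassium channels recycle the potassium that the sodium pump brings in, and they drive chloride secretion.

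Counts on genes ranged from 10903958 to 15307932 per library. Levels are given in cpm, counts per 1000000 counts of a library scaled by its TMM factor, and cpm do not correct for gene length. Before TMM scaling, a gene had to exceed 0.5 cpm in 3 or more libraries, and 15703 genes, 69 members among them, met this filter. The quasi-likelihood test of edgeR was fitted to all of these, and a gene was called at a Benjamini-Hochberg adjusted p under 0.01. Gucy2c itself, the gene behind the reporter, was measured at 549 to 1757 cpm in GUCY2C High cells and at 323 to 483 cpm in GUCY2C Medium cells (adjusted p = 0.00187 by edgeR). The enteroendocrine list of 24 genes summed to 44701 to 176576 cpm in GUCY2C High and to 162 to 591 cpm in GUCY2C Medium cells, and 23 of the 24 were called higher. The enterocyte list of 20 genes summed to 4162 to 37601 cpm in GUCY2C High, with the libraries of mice 12 and 15 the highest at 36760 and 37601 cpm, and to 70247 to 89613 cpm in GUCY2C Medium, with 4 of the 20 called lower and 0 higher. Bulk RNA cannot tell fewer cells of a type from less RNA per cell. A list of 20 forebrain neuron genes varied within both groups, from 253 to 2606 cpm in GUCY2C High and from 800 to 1813 cpm in GUCY2C Medium, with 0 called higher and 1 lower. Its gene Nrgn ranged from 20.04 to 933 cpm within GUCY2C High and from 8.91 to 521 cpm within GUCY2C Medium.

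GUCY2C High cells held more RNA of a set of potassium channels. Of the 69 tested members, 18 were called higher (26.1%) against 13.9% of all tested genes, and 1, Kcnn4, was called lower against 8.79% of all tested genes. The median log2 fold change was 0.76 over the tested members and 0.09 over all tested genes, and 55 of the 69 lay above 0. The called members included both subunits of the pancreatic type of ATP-sensitive channel (Abcc8 and Kcnj11), both subunits of the cardiac type of G protein-gated channel (Kcnj3 and Kcnj5), the alkaline-activated two-pore channel Kcnk16 and 4 members of the Kcnh family. All 18 were higher in all 5 mice. Of the 18, 9 exceeded 0.5 cpm in GUCY2C High libraries alone: Kcnab3, Kcnmb2, Kcnj5, Kcnj11, Kcnk2, Kcnk16, Kcnh2, Kcnh8 and Kcnv2. They entered the test only through the group where they were high, so their calls rest on that group. The same holds for Abcc8. Its 0.504 cpm in GUCY2C Medium of mouse 12 is 7 counts, below 0.5 cpm without the TMM factor, the scale the filter used. The enteroendocrine list separated the groups in the same direction, and its part in the 18 calls was not tested. With the mouse as a block, edgeR called 12 members higher, against 8.24% of all tested genes, and none lower, against 4.96%.

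By subfamily, 8 of 32 tested voltage-gated genes were called higher, with a median log2 fold change of 0.91, and 5 of them with the mouse as a block. For inward rectifiers the count was 3 of 9 with a median of 1.31, and 2 were called with the block. Two-pore genes gave 4 of 10 with a median of 0.86, of which 2 were called with the block. Auxiliary genes gave 3 of 11 with a median of 0.46, and 3 were called with the block. Of the 7 calcium- or sodium-activated genes 0 were called higher by edgeR, limma-voom or DESeq2, and 1 had an unadjusted p under 0.05. Only Kcnn4 was called lower by edgeR in that subfamily, and the other 4 subfamilies had no gene called lower. Over all tested genes the share called higher was 13.9%, or 8.24% with the mouse as a block, and the median log2 fold change was 0.09. No test was made of any subfamily as a list.

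**Figure D1:**
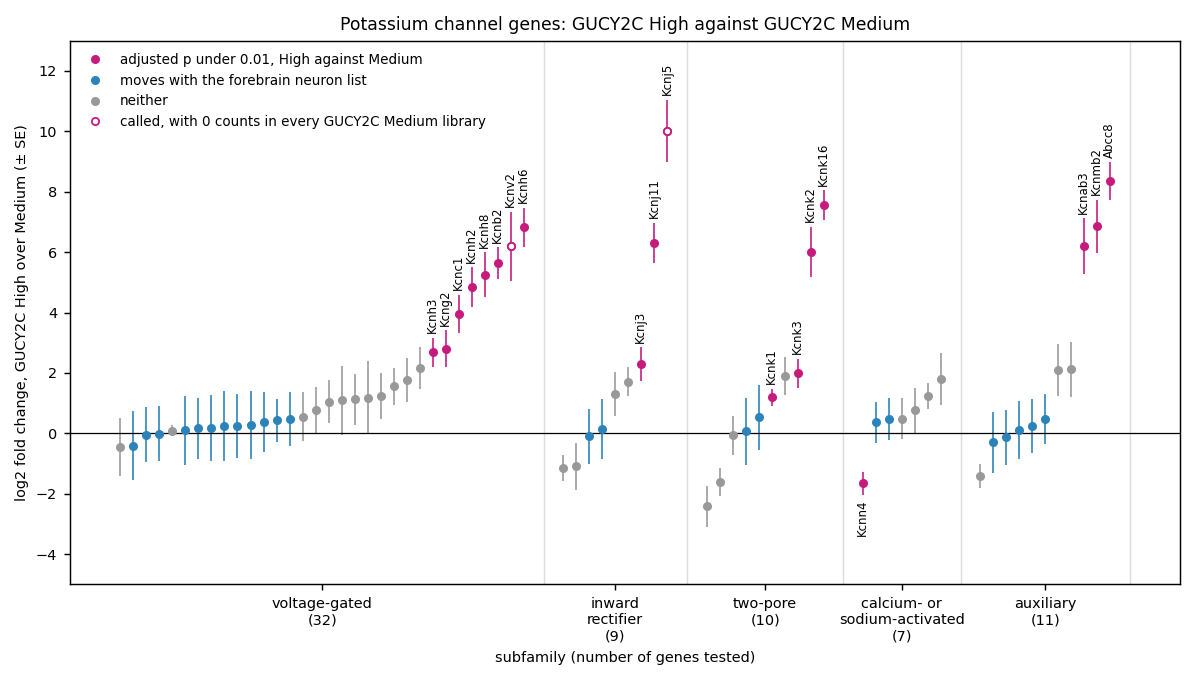
Log2 fold change of GUCY2C High over GUCY2C Medium cells (y axis, with SE) for each of the 69 tested members, ordered within 5 subfamilies (x axis). The 19 called genes are labelled, 18 above 0 and Kcnn4 at -1.65; the open points of Kcnj5 and Kcnv2 had 0 counts in every GUCY2C Medium library, so their fitted values depend on the prior count.

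Every GUCY2C High library exceeded every GUCY2C Medium library for 18 tested members (26.1%), against 16.7% of all tested genes. Among these were 17 of the 18 members called higher, and the remaining one, Kcnk1, overlapped. Every GUCY2C High library lay below every GUCY2C Medium library for Kcnn4 and Kcnk5, against 13.2% of all tested genes.

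To show the sequence next to which these genes are transcribed, the RefSeq promoters on GRCm38.p6 were searched. They matched 70 of the 96 members, through 95 start sites, and 10 of the 18 members called higher, through 13 start sites. In the 250 bases before the start, GGGCGG (the GC box), read on both strands, stood in 46.2% of the 13 start sites of members called higher, in 45.3% of all 95 member start sites and in 32.7% of all 32851 start sites. TATAAA (the TATA box) stood in 0 of the 13, in 3.16% of the 95 and in 12.4% of all. CAGATG, an E-box form, stood in 15.4%, 14.7% and 14.4%. TTCAGCACC, the left part of the RE1 element to which the neuronal repressor REST binds, stood in 1 start site among the members, that of Kcnh6, and in 0.301% of all start sites. None of these 4 motifs contains another, and a match describes letters and no binding.

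The promoters of 4 members called higher and of Kcnn4, the member called lower, are printed 5′ to 3′ on the strand of the gene, without bases that lie inside the table's own gene span, and capitals mark the motifs above. Kcnk16 is at chr14:20269270-20269519, Kcnh6 at chr11:106007898-106008123, Kcnj5 at chr9:32344351-32344594, Kcnj3 at chr2:55435720-55435969 and Kcnn4 at chr7:24370013-24370262. The genes lie on the minus strand for Kcnk16 and Kcnj5 and on the plus strand for the other 3. The RE1 part of Kcnh6 begins 186 bases before the RefSeq start, and its 3 GC boxes begin 99, 72 and 46 bases before it. Kcnj5 has GC boxes 63 and 22 bases before its start, Kcnk16 has 1 E-box 142 bases before, Kcnn4 has 1 GC box on the other strand 14 bases before, and Kcnj3 has no match.
Kcnk16: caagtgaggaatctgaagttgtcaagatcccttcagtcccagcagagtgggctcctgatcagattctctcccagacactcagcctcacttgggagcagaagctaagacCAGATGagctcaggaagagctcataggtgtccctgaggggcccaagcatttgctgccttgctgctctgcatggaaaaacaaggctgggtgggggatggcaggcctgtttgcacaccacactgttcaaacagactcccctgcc
Kcnh6: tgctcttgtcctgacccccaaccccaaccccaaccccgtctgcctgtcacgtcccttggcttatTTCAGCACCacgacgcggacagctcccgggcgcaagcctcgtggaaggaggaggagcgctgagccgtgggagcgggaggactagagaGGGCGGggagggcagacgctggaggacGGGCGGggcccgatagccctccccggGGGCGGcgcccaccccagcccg
Kcnj5: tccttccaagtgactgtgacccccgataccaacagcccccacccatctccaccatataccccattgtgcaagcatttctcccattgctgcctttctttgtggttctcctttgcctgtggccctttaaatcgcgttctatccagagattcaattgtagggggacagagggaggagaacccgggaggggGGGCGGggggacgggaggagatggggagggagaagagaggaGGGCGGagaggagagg
Kcnj3: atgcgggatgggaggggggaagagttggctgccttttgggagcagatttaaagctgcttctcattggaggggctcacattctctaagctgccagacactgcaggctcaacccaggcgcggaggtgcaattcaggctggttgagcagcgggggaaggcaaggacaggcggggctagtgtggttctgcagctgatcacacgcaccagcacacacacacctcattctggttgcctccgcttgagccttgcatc
Kcnn4: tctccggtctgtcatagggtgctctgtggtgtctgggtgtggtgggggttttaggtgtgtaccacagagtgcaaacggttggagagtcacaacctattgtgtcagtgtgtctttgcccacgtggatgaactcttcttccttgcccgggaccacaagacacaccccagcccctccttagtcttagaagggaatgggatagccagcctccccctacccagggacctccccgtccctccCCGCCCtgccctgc

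The ATP-sensitive channel joins pore subunits of the inward rectifier family to sulfonylurea receptors. Abcc8 (ENSMUSG00000040136, chr7:46104523-46180033) encodes the receptor SUR1, the target of sulfonylurea drugs. It stood at 108, 122, 51.2, 131 and 23.8 cpm in the GUCY2C High libraries and at 0.281, 0.0803, 0.504, 0.1502 and 0.257 cpm in the GUCY2C Medium libraries. The groups did not overlap, and the lowest GUCY2C High library, that of mouse 15, was also the one with the lowest enteroendocrine sum. The log2 fold change was 8.36 ± 0.62 (SE), with an adjusted p of 6.06e-06 by edgeR.

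Kcnj11 (ENSMUSG00000096146, chr7:46093953-46100764) encodes Kir6.2, the pore that pairs with SUR1 in pancreatic beta cells. It stood at 13.99, 16.6, 9.24, 19.2 and 6.80 cpm in GUCY2C High and at 0, 0.0803, 0.288, 0.375 and 0 cpm in GUCY2C Medium, with a log2 fold change of 6.31 ± 0.67 and an adjusted p of 5.78e-05. The gene is the direct neighbour of Abcc8 on the same strand, with 3758 bases and no protein-coding gene between them. In deposited FPKM, which are per length, Abcc8 exceeded Kcnj11 in each of the 5 GUCY2C High libraries, by 1.94-fold in mouse 15 to 4.28-fold in mouse 2. The second pair of this channel type, also neighbours, showed another pattern. Abcc9 (SUR2) had 0 counts in all 10 libraries, and Kcnj8 (Kir6.1), typical of vascular smooth muscle, stood at 0.0771 to 0.504 cpm in GUCY2C High and 0 to 1.11 cpm in GUCY2C Medium cells (log2 fold change -1.09 ± 0.77, adjusted p = 0.298).

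**Figure D2:**
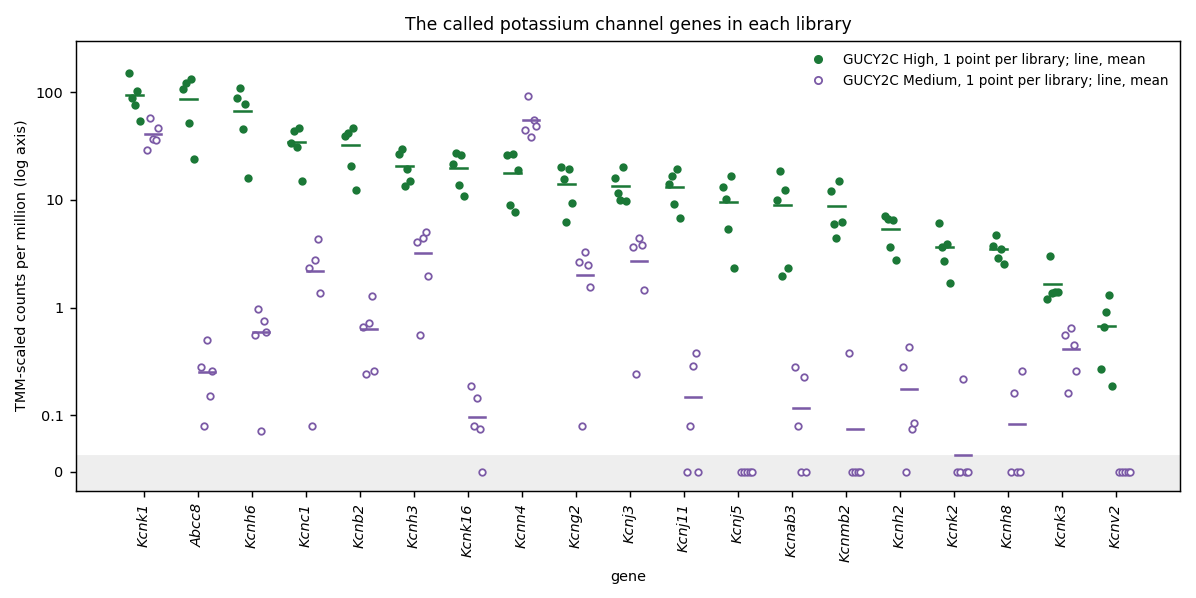
TMM-scaled cpm (log y axis, zeros in the grey band) of the 19 called members in each of the 5 GUCY2C High and 5 GUCY2C Medium libraries, with lines at the group means. The groups are separate for all but Kcnk1, Kcnn4 is the gene that is higher in GUCY2C Medium, and Kcnj5 and Kcnv2 are at 0 in all 5 GUCY2C Medium libraries.

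G protein-gated inward rectifiers open when Gi-coupled receptors release their beta-gamma subunits, and they slow excitation. Kcnj5 (ENSMUSG00000032034, chr9:32314707-32344350), which encodes GIRK4, stood at 13.2, 10.2, 5.37, 16.8 and 2.33 cpm in GUCY2C High and at 0 in every GUCY2C Medium library. Against a floor of 3 counts over the GUCY2C Medium group this is at least 194-fold higher (adjusted p = 0.000392). Its partner Kcnj3 (ENSMUSG00000026824, chr2:55435970-55598145), GIRK1, stood at 15.9, 11.6, 9.92, 20.3 and 9.70 cpm against 3.65, 0.241, 4.47, 3.83 and 1.45 cpm. The groups did not overlap (log2 fold change 2.30 ± 0.56, adjusted p = 0.0075). With the mouse as a block the adjusted p of Kcnj3 was 0.0137 in edgeR and 0.00674 in limma-voom, and it lay between 0.01003 and 0.0232 when any 1 library other than GUCY2C High 15 or GUCY2C Medium 7 was left out. In GUCY2C Medium cells, where Kcnj5 had no count, Kcnj3 was lowest in mouse 7. That library was also lowest in Nrgn, at 8.91 cpm, and in the enteroendocrine sum, at 162 cpm. The FPKM ratio of Kcnj5 to Kcnj3 ran from 0.258 in mouse 15 to 0.939 in mouse 7 among GUCY2C High libraries. The other genes of this type, Kcnj6 and Kcnj9, were not called, and Kcnj9 was among the members that moved with the forebrain list described below.

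Kcnj13 (Kir7.1) sits in epithelia that move ions. It averaged 3.38 ± 1.72 cpm (SD, n = 5) in GUCY2C High and 7.44 ± 4.36 cpm in GUCY2C Medium, lower in GUCY2C High in all 5 mice without passing the threshold (log2 fold change -1.14 ± 0.44, adjusted p = 0.0594).

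Two-pore channels carry background potassium current. Kcnk16 (ENSMUSG00000023387, chr14:20261376-20269199) encodes TALK-1, known from pancreatic beta cells, and had the smallest adjusted p of all members. It met the filter through GUCY2C High libraries alone, so its call and this rank rest on the group that admitted it to the test. It stood at 21.7, 27.4, 13.7, 25.9 and 10.8 cpm in GUCY2C High and at 0.187, 0.0803, 0.144, 0.0751 and 0 cpm in GUCY2C Medium (log2 fold change 7.55 ± 0.50, adjusted p = 3.76e-06). The protein-coding gene next to it is another member with the opposite order of groups. Kcnk5 (ENSMUSG00000023243, chr14:20140057-20181809), TASK-2, lies 79566 bases away on the same strand with no protein-coding gene between. It stood at 2.82, 2.29, 17.6, 2.16 and 24.4 cpm in GUCY2C High and at 69.7, 60.4, 39.8, 35.4 and 57.9 cpm in GUCY2C Medium. The groups did not overlap, and the change was not called by edgeR (log2 fold change -2.41 ± 0.68, adjusted p = 0.0154) but was by limma-voom (adjusted p = 0.00222) and DESeq2 (adjusted p = 0.00128). Within GUCY2C High it was highest in mice 12 and 15, the libraries with the highest enterocyte sums, whose part in the result was not tested. With each library left out in turn edgeR called it only without GUCY2C High 15 (adjusted p = 0.00396).

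Kcnk1 (ENSMUSG00000033998, chr8:125995170-126030685), TWIK-1, averaged 94.1 ± 36.4 cpm in GUCY2C High, the highest mean of the called members there and above Abcc8 (87.2 ± 47.1 cpm) by less than their SDs. These cpm do not correct for length. Per kilobase of listed length the GUCY2C High means were 42.1 cpm for Kcnk1 and 10.8 cpm for Abcc8. Kcnk1 stood at 151, 88.0, 75.9, 102 and 53.5 cpm in GUCY2C High against 29.3, 56.9, 36.6, 36.3 and 46.5 cpm in GUCY2C Medium. The lowest GUCY2C High library fell below the highest GUCY2C Medium library, that of mouse 7, though each mouse was higher in GUCY2C High (log2 fold change 1.19 ± 0.27, adjusted p = 0.00585). With the mouse as a block its adjusted p was 0.0288 in edgeR and 0.0187 in limma-voom. Leaving out GUCY2C High 7 or 14 or GUCY2C Medium 2, 12, 14 or 15 moved it to between 0.0103 and 0.0172.

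Kcnk2 (chr1:189207930-189402273), the mechanosensitive channel TREK-1, stood at 6.05, 3.68, 2.73, 3.93 and 1.70 cpm in GUCY2C High. GUCY2C Medium held 3 counts in all, in the library of mouse 12, so the ratio of the groups was 74.5, with a 95% counting interval of 25.2 to 364 (adjusted p = 0.000334). Kcnk3 (chr5:30588170-30625271), the acid-sensitive TASK-1, was low in both groups at 1.21, 3.01, 1.36, 1.39 and 1.39 cpm against 0.562, 0.161, 0.648, 0.451 and 0.257 cpm. The change in Kcnk3 (log2 fold change 1.98 ± 0.48, adjusted p = 0.00729) was not called with the mouse as a block (adjusted p = 0.0394 in edgeR and 0.0299 in limma-voom), nor when any 1 library other than GUCY2C High 15 or GUCY2C Medium 12 was left out (0.0105 to 0.0213). Kcnk10 (TREK-2) averaged 3.399 ± 2.20 cpm in GUCY2C High and 10.4 ± 3.61 cpm in GUCY2C Medium, lower in GUCY2C High in all 5 mice (log2 fold change -1.61 ± 0.47, adjusted p = 0.0186). Its adjusted p was 0.00847 without the GUCY2C High library of mouse 15. With all libraries it was 0.00946 by limma-voom and 0.00412 by DESeq2.

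The Kcnh genes encode the ether-a-go-go family, whose ERG members shape firing and repolarization. Kcnh6 (ENSMUSG00000001901, chr11:106008124-106034549), ERG2, was the highest of them at 88.6, 110, 45.6, 77.1 and 15.996 cpm in GUCY2C High, against 0.562, 0.963, 0.0720, 0.751 and 0.599 cpm in GUCY2C Medium (log2 fold change 6.83 ± 0.64, adjusted p = 2.61e-05). Kcnh2 (ERG1, chr5:24319589-24351604) stood at 7.13, 6.57, 3.63, 6.48 and 2.77 cpm against 0.281, 0, 0.432, 0.0751 and 0.0856 cpm (log2 fold change 4.85 ± 0.65, adjusted p = 0.000283). Within GUCY2C High, both genes were lowest in mouse 15 and next lowest in mouse 12. Kcnh8 (ELK1) averaged 3.47 ± 0.846 cpm against 0.0835 ± 0.119 cpm (log2 fold change 5.26 ± 0.74, adjusted p = 0.000388). Kcnh3 (ELK2, chr15:99224861-99242817), a channel of forebrain neurons, stood at 26.6, 29.5, 13.48, 19.3 and 14.9 cpm against 4.03, 0.562, 4.47, 5.03 and 1.97 cpm. Its groups did not overlap (log2 fold change 2.69 ± 0.48, adjusted p = 0.00161), and with the mouse as a block the adjusted p was 0.0109 in edgeR and 0.0054 in limma-voom.

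Among delayed rectifiers, Kcnb2 (Kv2.2, ENSMUSG00000092083, chr1:15287254-15723750) stood at 38.8, 42.0, 20.7, 46.1 and 12.4 cpm in GUCY2C High and at 0.655, 0.241, 0.720, 1.28 and 0.257 cpm in GUCY2C Medium (log2 fold change 5.63 ± 0.53, adjusted p = 2.66e-05). Kcnc1 (Kv3.1, chr7:46396497-46438704), a fast channel of rapidly firing neurons, stood at 34.0, 43.8, 30.7, 46.8 and 15.1 cpm against 2.34, 0.0803, 2.74, 4.36 and 1.37 cpm (log2 fold change 3.96 ± 0.63, adjusted p = 0.00082). Both genes separated the groups and were lowest in mouse 15 within GUCY2C High.

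Silent subunits form no channel of their own and change the gating of Kv2 channels such as Kcnb2. Kcng2 (Kv6.2) stood at 19.97, 15.6, 6.21, 19.4 and 9.26 cpm in GUCY2C High and at 2.62, 0.0803, 3.31, 2.48 and 1.54 cpm in GUCY2C Medium (log2 fold change 2.80 ± 0.62, adjusted p = 0.00469). With the mouse as a block its adjusted p was 0.0217 in edgeR and 0.0103 in limma-voom, and without GUCY2C High 2, 7 or 14 or GUCY2C Medium 2, 14 or 15 it lay between 0.0112 and 0.0162. Kcnv2 (Kv8.2), known from photoreceptors, was faint at 0.269, 0.663, 0.908, 1.31 and 0.189 cpm in GUCY2C High and had 0 counts in GUCY2C Medium, at least 13.2-fold higher against 3 counts over the group. It met the filter through 3 GUCY2C High libraries alone, so its call (adjusted p = 0.00505) rests on the group that admitted it to the test. It was not called with the mouse as a block in edgeR (adjusted p = 0.0443), and it was not tested without GUCY2C High 7, 12 or 14, since it then missed the filter. Among GUCY2C Medium libraries, 8 of the 18 members called higher were lowest in mouse 7 alone, Kcnc1, Kcng2, Kcnh3 and Kcnj3 among them. In that library Nrgn and the enteroendocrine sum (162 cpm) were also lowest. On the forebrain score described below, the slopes of these 4 genes had adjusted p of 0.751, 0.889, 0.481 and 0.783 by edgeR. That fit gave 1 slope for both groups together, so it cannot show how these genes moved within GUCY2C Medium alone. The part of neuronal or enteroendocrine RNA in these values was not tested.

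Kcnq1 (KvLQT1, ENSMUSG00000009545, chr7:143106362-143427042) carries the basolateral potassium current of epithelia together with its beta subunit Kcne3, and in deposited FPKM it was the highest member in GUCY2C High cells. Kcnq1 stood at 59.0, 70.2, 55.6, 58.1 and 38.7 cpm in GUCY2C High and at 47.5, 60.0, 43.4, 51.3 and 62.1 cpm in GUCY2C Medium, and the groups overlapped (log2 fold change 0.09 ± 0.18, adjusted p = 0.74). Whether counting used the strand is not given in the sources used here, so reads of an antisense transcript inside Kcnq1 cannot be told apart from its own. Kcne3 (ENSMUSG00000035165, chr7:100176502-100184869) stood at 58.0, 22.3, 82.6, 27.5 and 63.9 cpm against 80.4, 236, 144, 120 and 95.3 cpm. Kcne3 was lower in GUCY2C High in all 5 mice, yet 1 GUCY2C High library passed the lowest GUCY2C Medium library, and it was not called (log2 fold change -1.41 ± 0.40, adjusted p = 0.0154). Without the GUCY2C High library of mouse 12 the adjusted p of Kcne3 was 0.00964. With all libraries it was 0.0117 by limma-voom and 0.00318 by DESeq2. The FPKM ratio of Kcne3 to Kcnq1 was 0.287 to 1.49 in GUCY2C High and 1.38 to 3.55 in GUCY2C Medium libraries. The FPKM imply a length of 858 bases for Kcnq1, against a listed gene length of 4093, so its place depends on the length used. In cpm per kilobase of listed length, Kcnq1 averaged 13.8 and Kcne3 28.6 in GUCY2C High. On that scale Kcnq1 ranked 4 among the members there.

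Calcium-activated channels open when calcium rises inside the cell. Kcnn4 (KCa3.1, ENSMUSG00000054342, chr7:24370263-24386690), a basolateral channel of intestinal epithelium that also serves immune cells, was the member called lower. It stood at 26.2, 8.98, 26.9, 7.79 and 18.8 cpm in GUCY2C High and at 44.4, 92.2, 38.0, 55.0 and 48.1 cpm in GUCY2C Medium, without overlap (log2 fold change -1.65 ± 0.38, adjusted p = 0.0062). With the mouse as a block its adjusted p was 0.0281 in edgeR and 0.0161 in limma-voom. It lay between 0.0104 and 0.0169 when any 1 library other than GUCY2C High 2 or 12 was left out, and with library size alone as the scale it was 0.0145. The myeloid and B cell list summed to 38.6 to 805 cpm in GUCY2C High and 599 to 4502 cpm in GUCY2C Medium with none of its 6 tested genes called, and its part in the Kcnn4 difference was not tested. Kcnma1, the large-conductance channel, showed no such separation at 3.16, 13.99, 10.4, 5.16 and 23.2 cpm against 10.0, 0.642, 16.1, 11.1 and 5.48 cpm (log2 fold change 0.37 ± 0.68, adjusted p = 0.724).

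Its beta subunit Kcnmb2 (ENSMUSG00000037610, chr3:31902507-32200180), which makes the large-conductance channel inactivate, was called higher. Kcnmb2 stood at 12.2, 6.03, 4.47, 14.95 and 6.17 cpm in GUCY2C High, whereas GUCY2C Medium held 4 counts in all, in mouse 2 alone, at 0.374 cpm. The ratio of the groups was 133, with a 95% counting interval of 51.8 to 491 (adjusted p = 0.000216), and the fitted log2 fold change moved from 6.85 to 9.93 without that library. Kcnab3 (chr11:69326258-69333042), a cytoplasmic beta subunit of Kv1 channels, stood at 10.0, 18.4, 1.97, 12.4 and 2.33 cpm against 0.281, 0.0803, 0, 0.225 and 0 cpm (log2 fold change 6.20 ± 0.92, adjusted p = 0.000543). Within GUCY2C High, Kcnab3 was lowest in mice 12 and 15, the libraries with the highest enterocyte sums.

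The GUCY2C High library of mouse 15, which held 44701 cpm of the enteroendocrine list, was the lowest of the 5 for 13 of the 18 members called higher (72.2%). It was also the lowest for 70.4% of the 2186 genes called higher in the whole table, a share close to that of the members.

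A second set of members moved with another signal. The forebrain score of a library, the mean log2 cpm of 20 genes of forebrain neurons, was fitted with the group as a covariate, and 23 of the 69 tested members (33.3%) rose with it at an adjusted p under 0.01 by edgeR, against 6.21% of all tested genes. They comprised 12 voltage-gated genes, 2 inward rectifiers, 2 two-pore genes, 2 calcium-activated genes and 5 auxiliary genes. Among them were Kcna1, Kcna2 and Kcna6 of the axonal Kv1 family, Kcnq3 and Kcnq5 of the M current, Kcnd2 and Kcnd3 with their partners Kcnip2, Kcnip3 and Kcnip4, and Kcnma1. The slopes ran from 0.61 to 1.72 log2 units per unit of the score. This reading of the covariate was chosen after the data were seen. Genes of other marker lists also rose with the score: 3 of 6 tested enteric neuron genes, 3 of 5 oligodendrocyte genes and 1 of 6 astrocyte genes. So did 2 of 10 tuft genes, 1 of 3 enteric glia genes and 1 of 3 mesenchyme and endothelium genes. None rose in the enteroendocrine, enterocyte, goblet, Paneth, stem cell, T cell, myeloid and B cell or proliferation lists. Of the forebrain list itself 18 of 20 did. The enteric neuron list summed to 90.7, 167, 127, 74.1 and 285 cpm in GUCY2C High. In GUCY2C Medium it summed to 109, 3.37, 129, 102 and 48.6 cpm. The cell source of the signal was not tested.

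**Figure D3:**
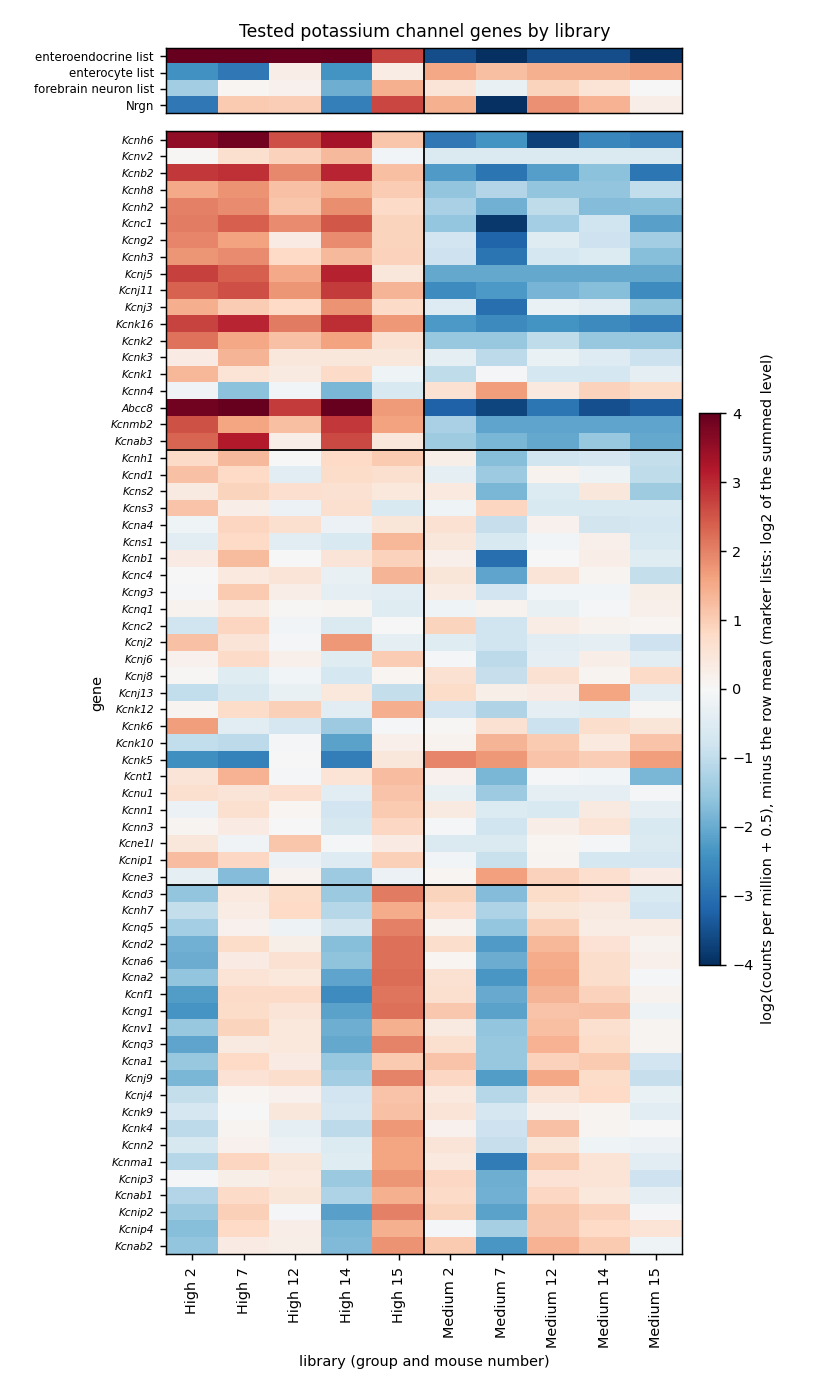
Tested members (67 rows) in the 10 libraries (columns), as log2(cpm + 0.5) minus the row mean, with 3 marker list sums and Nrgn above. The blocks are, from the top, 19 called members, 26 in neither set and 22 that moved with the forebrain list; the last block follows Nrgn, high in GUCY2C High 15 and low in GUCY2C High 2, GUCY2C High 14 and GUCY2C Medium 7.

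Nrgn, the forebrain marker, stood at 20.04, 305, 289, 21.9 and 933 cpm in GUCY2C High and at 395, 8.91, 521, 387 and 176 cpm in GUCY2C Medium. Kcnip2, a calcium-binding subunit of Kv4 channels, stood at 0.538, 5.19, 2.35, 0.154 and 11.3 cpm and at 4.96, 0.161, 5.83, 5.03 and 2.31 cpm. Kcnab2, the main Kv1 beta subunit of brain, stood at 0.336, 2.59, 2.42, 0.231 and 8.19 cpm and at 4.59, 0, 6.05, 4.66 and 1.71 cpm. In each case the GUCY2C High libraries of mice 2 and 14 and the GUCY2C Medium library of mouse 7 were low and the GUCY2C High library of mouse 15 was the highest.

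The 23 were chosen by their slope on the forebrain score, so their order over the libraries follows from the choice and is given as a description. Of the 23, 22 were highest of all 10 libraries in GUCY2C High 15, and 23 were lowest of the GUCY2C Medium libraries in mouse 7. Their summed level was 9.28, 74.2, 62.8, 9.71 and 194 cpm in GUCY2C High and 75.2, 3.45, 111, 79.5 and 39.3 cpm in GUCY2C Medium. None of the 23 was called between the groups by edgeR, limma-voom or DESeq2, and 0 had an unadjusted p under 0.05. Their median log2 fold change was 0.18, from -0.41 to 0.53, and the groups overlapped for all 23. The part of neuronal RNA in their levels was not tested. The other 46 tested members, which held all 19 calls, had a median of 1.74. With the forebrain score as a covariate, edgeR called 21 members higher against 16.3% of all tested genes and 2 lower against 11.9%, and the 19 called members all remained.

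**Figure D4:**
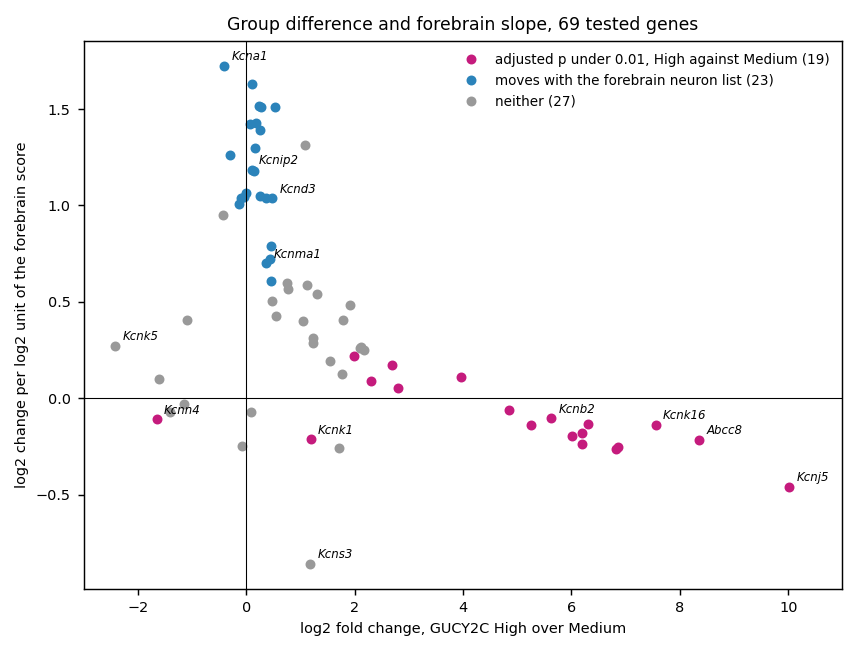
Slope on the forebrain score (y axis, log2 units per unit of the score) against the log2 fold change of GUCY2C High over Medium (x axis) for the 69 tested members. The 23 members that moved with the forebrain list (blue) lie between -0.41 and 0.53 on the x axis, and the 19 called members (pink) have no slope that passed the threshold.

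Levels were compared between genes per length. In deposited FPKM the 10 highest members of GUCY2C High cells were Kcnq1 (72.7 ± 18.6, SD, n = 5), Kcnk1 (58.3 ± 22.5), Kcne3 (58.3 ± 27.5), Abcc8 (48.9 ± 27.4), Kcnh6 (30.8 ± 18.9), Kcnk16 (14.5 ± 5.96), Kcnj11 (13.3 ± 5.25), Kcng2 (12.6 ± 5.44), Kcnh3 (12.1 ± 5.02) and Kcnn4 (11.2 ± 5.42). Each neighbour in this order differed from the next by less than the larger of their SDs. GUCY2C Medium cells were led by Kcne3 (130 ± 62.3), Kcnq1 (55.8 ± 7.38), Kcnn4 (29.3 ± 12.1), Kcnk5 (23.8 ± 7.41), Kcnk1 (21.0 ± 5.49) and Kcnj13 (8.91 ± 5.18). The steps after Kcne3, Kcnq1, Kcnk1 and Kcnj13 were larger than the SDs on both sides, and the others were not. After these came Kcnk10 (3.00 ± 1.02), Kcnip2 (2.67 ± 1.78), Kcnab2 (2.37 ± 1.76) and Kcnma1 (2.33 ± 1.60), the last 3 of which moved with the forebrain list. The top 10 of the groups shared 4 genes.

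**Figure D5:**
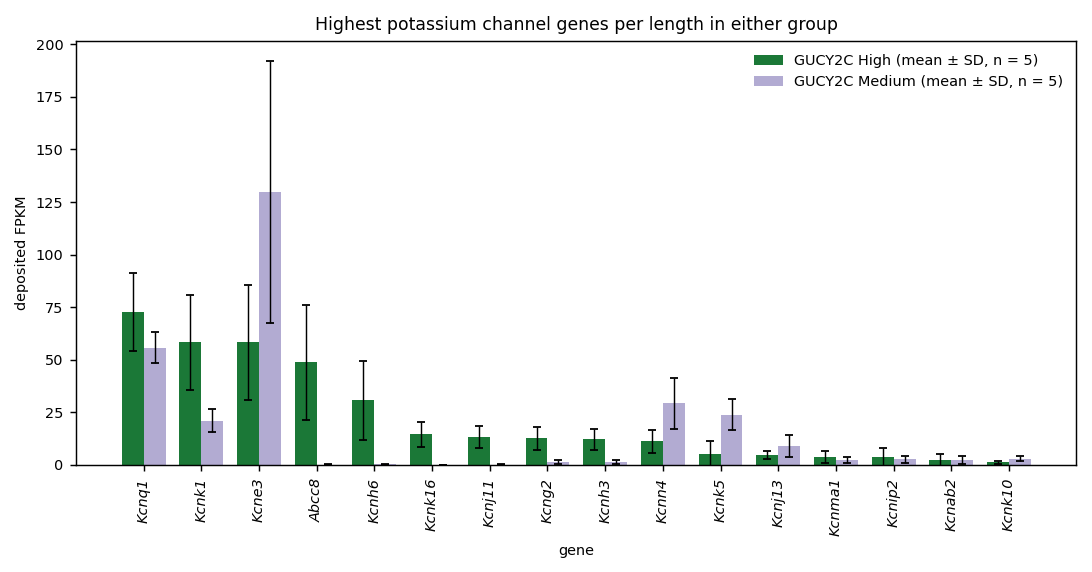
Mean deposited FPKM with SD over 5 libraries (y axis) of the members among the 10 highest in either group (x axis), GUCY2C High in green and GUCY2C Medium in violet. Abcc8, Kcnh6, Kcnk16 and Kcnj11 are near 0 in GUCY2C Medium, whereas Kcne3, Kcnn4 and Kcnk5 are higher there.

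Summed over the 96 members, FPKM were 427 ± 76.6 in GUCY2C High and 304 ± 71.5 in GUCY2C Medium cells, and the ranges overlapped at 351 to 529 against 236 to 424. Voltage-gated genes made up 38.4% of the sum in GUCY2C High and 23.1% in GUCY2C Medium, and auxiliary genes 30.1% and 45.5%. For 71 of 92 members the FPKM imply a shorter gene than the table lists, with a median ratio of 0.603. With cpm per kilobase of table length instead, 9 of the top 10 genes in GUCY2C High and 8 in GUCY2C Medium were shared, and Kcnk1 took the first place in GUCY2C High. On that scale voltage-gated genes made up 31.5% of the sum in GUCY2C High and 13.3% in GUCY2C Medium, and auxiliary genes 26.9% and 50.4%.

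The 27 members that were not tested had at most 27 counts in any 1 library. In 4 of them, Abcc9, Kcne1, Kcnj1 and Kcna10, no count was found, which by the floor used here allows up to 3 counts over each group of 5 libraries. With these, 12 had fewer than 10 counts over all 10 libraries. Kcnj1 is the renal channel ROMK and Kcne1 the cardiac partner of Kcnq1, and neither was detectable at this depth. Kcnt2 and Kcnj10 gave the highest single counts, 27 and 24, both in GUCY2C High libraries.

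Partners of potassium channels were read from 3 lists and the lists as such were not tested. Over all tested genes 13.9% were called higher and 8.79% lower, and the counts of the pumps and of the regulators below lay near these shares. Of 11 tested among 14 channel-binding subunits and related pacemaker genes, 4 were called higher and 0 lower, among them Hcn4 (log2 fold change 6.16 ± 0.57, adjusted p = 2.33e-05), Hcn3 (2.58 ± 0.34, adjusted p = 0.00022) and Amigo1 (1.93 ± 0.27, adjusted p = 0.000383). Hcn channels pass the pacemaker current and Amigo1 binds Kv2 channels. Hcn4 averaged 9.82 ± 5.39 cpm in GUCY2C High and 0.128 ± 0.0685 cpm in GUCY2C Medium.

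Of 12 tested among 15 potassium pumps and cotransporters, 1 was called higher and 1 lower. Atp1b3, a beta subunit of the sodium pump, averaged 112 ± 26.0 against 59.1 ± 18.5 cpm (log2 fold change 0.92 ± 0.23, adjusted p = 0.00882, and 0.0127 in edgeR with the mouse as a block). Of 17 tested among 18 regulators of channel traffic and gating, 3 were called higher and 1 lower. Wnk4, a kinase that controls ion transporters, gave a log2 fold change of 2.49 ± 0.49 (adjusted p = 0.00255), the ubiquitin ligase Nedd4 one of 1.25 ± 0.20 (adjusted p = 0.000904) and the kinase Stk39 one of 0.96 ± 0.21 (adjusted p = 0.00509, and 0.0108 in edgeR with the mouse as a block). Prkg2, the membrane-bound cGMP-dependent kinase that acts downstream of GUCY2C, averaged 36.7 ± 5.07 cpm in GUCY2C High against 79.3 ± 15.5 cpm in GUCY2C Medium (log2 fold change -1.11 ± 0.17, adjusted p = 0.000689).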

How the data were processed

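RNA of GUCY2C High and GUCY2C Medium cells was measured in 10 libraries, 5 per group, 1 of each from each of 5 mice. The groups follow the sample titles, and the numbers 2, 7, 12, 14 and 15 there were taken as mice, since each mouse gave both groups. Deviations from the group means correlated by 0.272, -0.130, 0.0794, -0.125 and -0.258 in mice 12, 14, 15, 2 and 7. These correlations show no pairing by number, so counts over mice and fits with the mouse as a block rest on the titles alone. Raw read counts per gene were deposited by the authors, whose provider aligned reads with STAR; the counter and its strand setting are not given in the sources used here. The FPKM values, also deposited by the authors, divide counts by gene length and depth and were used only for levels between genes. The 10 columns of values normalised by the provider and the authors' own comparison (fold changes, p-values and a test statistic, made with limma 3.40.6 and edgeR 3.26.8 per the submitters' processing notes) were not used. The labels name mm9, whereas 96 of 96 members overlap their GRCm38.p6 positions and 18 their NCBIM37 positions, so positions are given on GRCm38. Within groups, log cpm of libraries correlated by 0.815 to 0.966, so no 2 libraries were taken as 1.

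Genes above 0.5 cpm before TMM scaling in at least 3 libraries were fitted in R 4.3.3 with edgeR 4.0.16 (TMM, quasi-likelihood, no mouse term, biological coefficient of variation 0.458), with adjusted p under 0.01 over all 15703 genes. Alternatives were limma-voom (limma 3.58.1), DESeq2 1.42.0, the mouse as replicate block, other scalings and filters, a forebrain covariate, an adjusted p under 0.05 and each library left out. The scripts were tested on simulated data. Summaries were made with pandas 2.3.3, scipy 1.17.1 and numpy 2.4.6 in Python 3.11.15, and figures with matplotlib 3.10.9. Genes named are the members called, the 10 highest per length in each group, Abcc8, Abcc9, Kcnj8 and Kcnj11, members whose groups did not overlap, partner genes called and Nrgn; other genes named as examples were chosen after their values were seen. The members, the lists and the motifs were chosen with earlier results of these data known. Promoters are RefSeq's. A floor of 3 counts, and the 95% interval of a ratio, cover counting error only. A few genes are counted but not reported by name here.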

Additional observations from a re-analysis of the deposited data

Results flagged for a closer look

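Among 56 groups of 5 libraries tested for a lone outlier by Dixon's criterion, 3 were flagged. Chance alone flags about 1 in 20, so this number is near what chance gives. Kcnmb2 was at 0.374 cpm in GUCY2C Medium of mouse 2 and at 0 in the other GUCY2C Medium libraries. Kcnk2 was at 0.216 cpm, which is 3 counts, in GUCY2C Medium of mouse 12 and at 0 in the others. For both genes the other libraries were all at 0, so any count in 1 library would have been flagged. Kcnk3 was at 3.01 cpm in GUCY2C High of mouse 7 and between 1.21 and 1.39 cpm in the other GUCY2C High libraries.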

How the results depend on the processing

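The count of members called higher, 18 with all libraries, ran from 13 to 19 when each library was left out in turn (the 19 include Kcnj2, called only without GUCY2C High 15 among these fits), and it stayed within 1.5 times under every alternative. The 1 member called lower was less stable: the count was 3 with limma-voom, 4 with DESeq2, 0 with the replicate block in edgeR and 2 with it in limma-voom, 0 with library size only, 2 with the forebrain covariate, 4 at an adjusted p under 0.05, 0 to 2 with each library left out, and 4 without the GUCY2C High libraries of mice 12 and 15, an alternative added after the data were seen. With the replicate block in edgeR 5 voltage-gated, 2 inward rectifier, 2 two-pore and 3 auxiliary genes were called higher. With the forebrain covariate 1 calcium- or sodium-activated gene was. The summed level per length was 183 in GUCY2C High and 158 in GUCY2C Medium in cpm per kilobase of table length. Library size alone moved the median log2 fold change of all tested genes from 0.09 to 0.39. Some genes that were not called changed sign. Kcnab2 moved to 0.041 with library size only, and ran from -1.23 to 0.12 when 1 library was left out, above 0 without GUCY2C High 2 or GUCY2C Medium 12. Kcnip2 moved to -0.35 with limma-voom, to -0.65 with the replicate block in edgeR and to -0.82 without GUCY2C High 12 and 15, and ran from -0.77 to 0.48 when 1 library was left out, below 0 without GUCY2C High 15 or GUCY2C Medium 7. Kcnma1 moved to -0.18 without GUCY2C High 12 and 15, and ran from -0.047 to 0.80 when 1 library was left out, below 0 without GUCY2C High 15. The cause was not tested. For named genes, 530 of 603 alternative values kept direction and side of the threshold, 49 lost the call, 14 gained one and 10 changed sign. The replicate block changed no other member's call than those given beside the results, apart from Kcnk10 and Kcnk5, called lower with it in limma-voom (adjusted p = 0.00826 and 0.00965).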

Other observations

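Members outside the called and forebrain sets varied between the groups without a call. Kcnj2, the classical Kir2.1 rectifier, averaged 3.70 ± 2.52 cpm (SD, n = 5) in GUCY2C High and was higher there in all 5 mice (log2 fold change 1.71 ± 0.48, adjusted p = 0.0152 by edgeR). DESeq2, library size alone and leaving out GUCY2C High 15 each gave an adjusted p below 0.01 for it (0.0025, 0.00761 and 0.00449). Kcnh1, which encodes the founding ether-a-go-go channel, gave a log2 fold change of 2.18 ± 0.69 (adjusted p = 0.0276, and 0.00894 with the forebrain covariate). Kcnu1, known from sperm, gave 1.23 ± 0.42 (adjusted p = 0.0379, and 0.00536 with that covariate), and Kcnk12, a two-pore subunit, gave 1.91 ± 0.63 (adjusted p = 0.0316, and 0.00446). These 4 genes were chosen after their values were seen.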
